A study of Mus musculus with 9 samples.

Results

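Transcript levels of 32 genes of cholesterol synthesis, uptake, storage and efflux were followed in mouse ovaries at 3 ages. The genes were taken by symbol, with no measured value in the rule, and each of the 32 symbols matched a row among the 55487 gene rows of the series. The samples were ovaries of C57BL/6 mice at postnatal day 8, day 50 and day 65, with 3 RNA-seq libraries at each age, and the series calls the collected tissue tumor samples. Every ovary, at every age, carried the PIK3CA* gene knock-in that is specific to the oocyte, so age was the only labelled difference between groups, and ovaries without the knock-in were not analysed here. The sources used here do not name the driver of the oocyte-specific allele. The labels do not say that the 3 libraries of an age are different animals, and so the p-values reflect library-to-library spread, part of which may be technical.

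Total expected counts per library ran from 14116908 to 18868831. None of the 32 genes was lost to the filter on low counts, and all were tested among 17747 genes. Day 8 replicate 1 stood apart from its group. Ribosomal protein genes took 11.8% of its counts, against 4.59% and 6.07% in the other day 8 libraries, 3.19% to 3.74% at day 50 and 10.3% to 13.3% at day 65. Markers of the ovary were present. The 6 granulosa cell markers (Foxl2, Fshr, Cyp19a1, Inha, Inhba and Amh) summed to 480 to 905 CPM at day 8, 5743 to 6920 CPM at day 50 and 2745 to 2896 CPM at day 65. At day 65 Inha averaged 1175 CPM and Inhba 1135 CPM, when the granulosa sum averaged 2797 CPM. Amh averaged 13.7 CPM at day 65 against 74.3 CPM at day 8. Fshr averaged 0.656 CPM against 3.51 CPM, with overlapping libraries. The 6 oocyte markers (Gdf9, Zp3, Ddx4, Figla, Nobox and Ooep) summed to 1446 to 1532 CPM at day 8, 60.9 to 84.3 CPM at day 50 and 44.7 to 74.3 CPM at day 65. CPM are the counts after TMM normalization, relative to the effective library size. In bulk ovary RNA, fewer cells of a type and less RNA per cell cannot be told apart.

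Cells build cholesterol from acetyl-CoA by way of mevalonate, farnesyl diphosphate, squalene and lanosterol. The pathway is controlled by SREBP transcription factors, encoded by Srebf1 and Srebf2, which the escort protein SCAP carries out of the endoplasmic reticulum when sterols are scarce and which INSIG proteins retain there when sterols are plentiful. Cells also take cholesterol from lipoproteins, store it as esters and export it through ABC transporters, which liver X receptors induce when oxysterols accumulate. In the ovary cholesterol is the substrate of steroid hormones, and steroid-producing cells take up much of theirs from high-density lipoprotein through SR-BI, the product of Scarb1.

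Promoter sequence was available for 25 of the 32 genes (RefSeq, build GRCm38.p6, windows of 300 bases around a start site, 34 windows in all), and Fdps, Fdft1, Sqle, Scarb1, Npc1, Stard4 and Abcg1 were not matched. Sterol regulatory elements and CCAAT boxes are the classical elements of this gene family, so TCACNCCAC, its shorter core CACNCCAC (which lies inside it), CCAAT and GGGCGG were searched on both strands. TCACNCCAC was found in 1 of the 34 windows, that of Hmgcs1, and in 1.24% of 32851 windows of all genes. CACNCCAC was found in 3 of the 34 (Acat2, Hmgcs1 and Insig1) and in 6.24% of all windows. CCAAT was found in 64.7% of the 34 windows against 37.4% of all. Counted by gene, in any of its windows, it was found in 15 of the 16 synthesis genes that had a window. The share by gene was not counted over all genes. GGGCGG was found in 82.4% of the 34 against 35.7% of all. These are matches of letters, and binding was not measured. The stretches below lie before the start site and hold no annotated exon. They show a synthesis gene that was highest at day 50 (Hmgcs1, chr13:119690101-119690350, plus strand), a synthesis gene whose count level was higher at each later age (Mvk, chr5:114444061-114444268, plus strand), a regulator that was lowest at day 50 (Insig1, chr5:28071162-28071362, plus strand) and an efflux gene that peaked at day 50 (Abca1, chr4:53159896-53160145, minus strand). Capitals mark TCACNCCAC and CCAAT on either strand, where ATTGG is CCAAT read on the other strand.
Hmgcs1: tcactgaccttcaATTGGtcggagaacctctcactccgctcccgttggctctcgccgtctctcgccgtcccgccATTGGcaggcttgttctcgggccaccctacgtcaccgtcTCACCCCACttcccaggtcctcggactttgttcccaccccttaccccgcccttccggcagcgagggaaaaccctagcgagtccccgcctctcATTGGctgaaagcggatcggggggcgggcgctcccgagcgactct
Mvk: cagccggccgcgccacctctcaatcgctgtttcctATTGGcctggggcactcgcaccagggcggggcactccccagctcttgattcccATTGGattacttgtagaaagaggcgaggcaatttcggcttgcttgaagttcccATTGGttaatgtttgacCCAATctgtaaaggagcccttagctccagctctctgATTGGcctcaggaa
Insig1: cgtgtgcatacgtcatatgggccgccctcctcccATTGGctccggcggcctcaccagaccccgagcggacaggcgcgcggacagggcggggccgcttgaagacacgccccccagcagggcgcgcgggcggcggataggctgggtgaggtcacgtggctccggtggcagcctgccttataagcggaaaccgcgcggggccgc
Abca1: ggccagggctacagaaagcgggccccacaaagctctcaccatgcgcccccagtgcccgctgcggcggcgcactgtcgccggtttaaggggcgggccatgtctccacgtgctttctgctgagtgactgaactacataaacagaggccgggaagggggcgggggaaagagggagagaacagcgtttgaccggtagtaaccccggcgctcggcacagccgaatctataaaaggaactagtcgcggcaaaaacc
The Hmgcs1 stretch holds TCACNCCAC 1 time and CCAAT 3 times, that of Mvk holds CCAAT 5 times and that of Insig1 holds it 1 time, with a CACNCCAC match that lies nearer the start than the bases shown. The Abca1 stretch holds neither motif and has GGGCGG 2 times, in lower case.

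Most of the 32 genes rose at day 50 relative to day 8. At day 50, 20 genes were higher than at day 8, 3 were lower (Fdft1, Lbr and Insig1) and 9 did not pass the test, and the fitted change was positive in 28 of 32. The test was edgeR's quasi-likelihood test with a Benjamini-Hochberg adjusted p under 0.05 over all 17747 genes, which called 19.5% of all genes higher and 21.4% lower (40.8% in either direction). The median log2 fold change was 0.65 for the 32 genes and -0.04 for all genes. Leaving out 1 library at a time gave 16 to 20 genes higher. The count of lower genes was 1 without day 8 replicate 3 or day 50 replicate 2.

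Day 65 differed from day 50 in both directions. At day 65, 8 of the 32 genes were higher than at day 50, 9 were lower and 15 did not pass, with a median log2 fold change of 0.04 against -0.06 for all genes. Over all genes 27.5% were called higher and 28.4% lower (55.9% in either direction), so the share of the 32 that was called was near the background. The count of lower genes was 5 without day 8 replicate 3 or any of the day 50 replicates 1, 2 and 3, and 6 to 9 genes were higher with 1 library left out. These counts also depended on the unit: on TPM 1 gene was higher and 18 lower in limma. There, 1723 of all 17747 genes were called higher and 8318 lower. Against day 8, day 65 had 19 genes higher, 3 lower (Lbr, Hsd17b7 and Npc1) and 10 that did not pass, where 29.7% of all genes were called higher and 32.6% lower (62.3% in either direction). The median log2 fold change was 0.58, against -0.05 for all genes. Without day 8 replicate 1, the library that stood apart, the counts were 20 higher and 2 lower at day 50 against day 8, and 21 higher and 2 lower at day 65 against day 8.

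The plot of fold changes shows all 32 genes in the 3 comparisons, in which each pair of comparisons shares the libraries of an age. Libraries of the 2 ages did not overlap, whatever the size of the change, in 25 genes that were higher and 3 that were lower at day 50 against day 8, where 28.7% and 29% of all genes did so (57.7% in either direction). For day 65 against day 50 the counts were 9 and 12, against 33% and 34.9% of all genes (68% in either direction), and for day 65 against day 8 they were 19 and 3, against 31% and 34.7% (65.7% in either direction). A change of at least 2-fold, called and with no overlap between the libraries of the ages was found in 10 genes at day 50 against day 8 (all higher), in 6 genes at day 65 against day 50 (3 higher and 3 lower) and in 7 genes at day 65 against day 8 (all higher). The same held for 24.3%, 33.4% and 40.7% of all genes in those comparisons. In all, 14 genes met this in at least 1 comparison, and their values are given below by library, with those of the regulators.

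**Figure D1:**
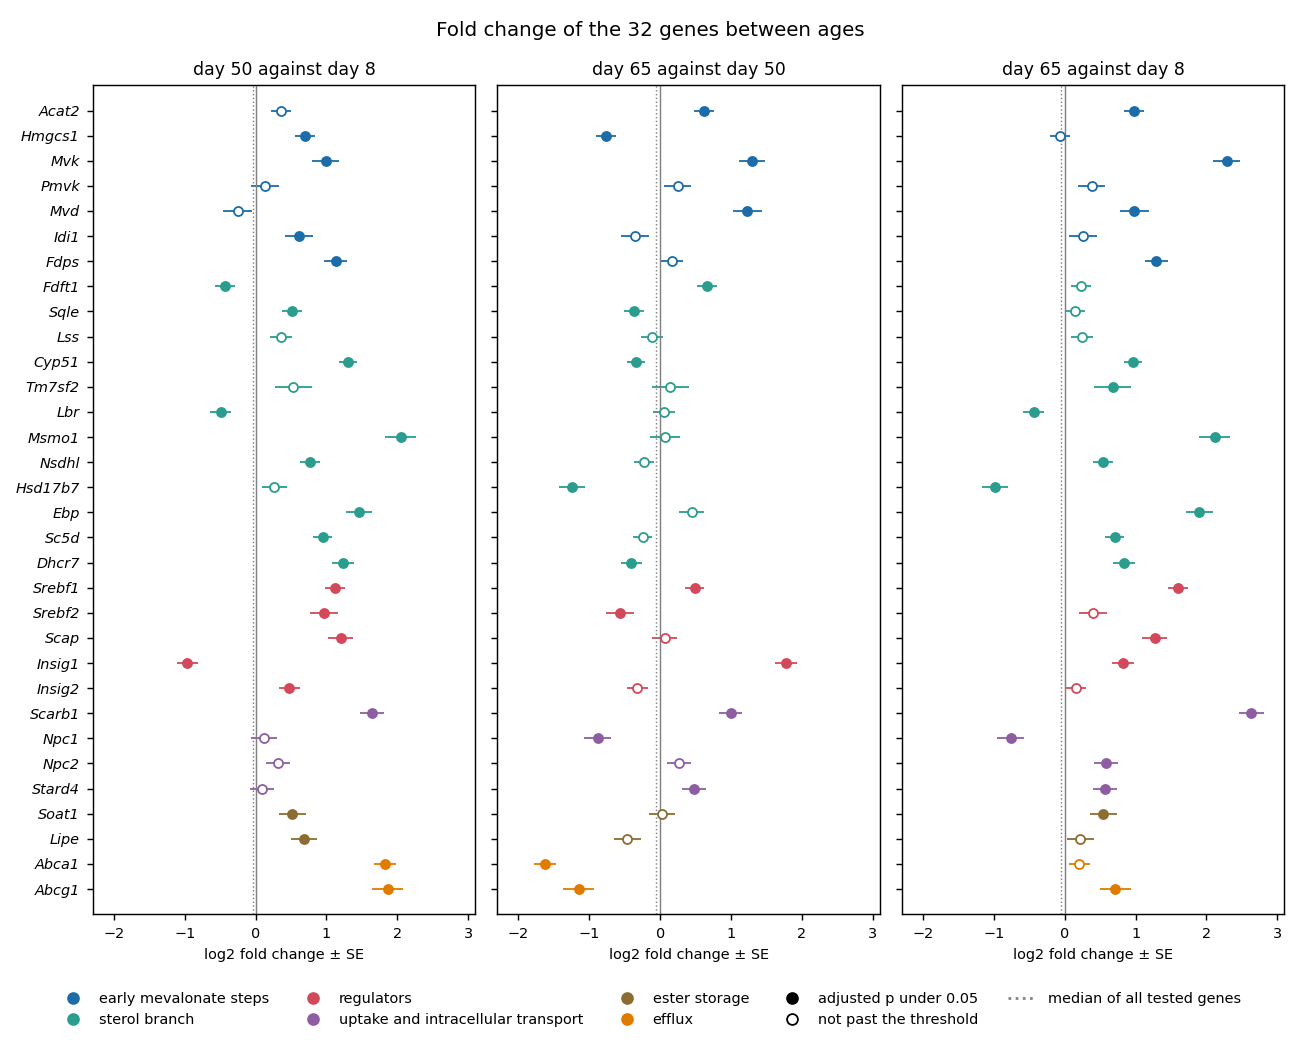
Fitted log2 fold changes (x axis, with SE) of the 32 genes (rows, coloured by role) from edgeR on counts, the later age over the earlier, with filled points for an adjusted p under 0.05 and a dotted line at the median of all tested genes. Scarb1 lies right of 0 in each panel (1.64, 0.99 and 2.63), and Insig1 lies left of 0 in the first panel (-0.96) and right of it in the others (1.78 and 0.82).

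The early steps of the pathway, from acetyl-CoA to farnesyl diphosphate, did not move as a block. Of 7 genes, 4 rose at day 50 against day 8 (Hmgcs1, Mvk, Idi1 and Fdps) and none fell. At day 65 against day 50, 3 were higher (Acat2, Mvk and Mvd) and 1 was lower (Hmgcs1). For day 65 against day 8, 4 were higher (Acat2, Mvk, Mvd and Fdps). Over all genes 40.8%, 55.9% and 62.3% were called in either direction in these 3 comparisons. Without regard to direction, the early-step counts in the last 2 lie near those shares. At day 65 against day 50, 42.9% of the early genes were higher and 14.3% lower, where 27.5% and 28.4% of all genes were. At day 65 against day 8, 57.1% of the early genes were higher and none lower, where 29.7% and 32.6% of all genes were. Mvk (chromosome 5, 114444269 to 114460591) encodes mevalonate kinase. It had 11.4, 10.8 and 11.9 CPM on day 8, 22.5, 22.5 and 22.9 CPM on day 50 and 71.2, 40.8 and 54.6 CPM on day 65. No library of an age overlapped with another age, and the day 65 libraries were the most spread. Its log2 fold change was 0.99 (SE 0.19, edgeR adjusted p = 0.002) at day 50 against day 8, and 1.29 (SE 0.18, edgeR adjusted p = 0.000297) at day 65 against day 50. On log2(TPM + 1) the second value was 0.30 and did not pass (limma adjusted p = 0.304). At day 65 it was 4.87-fold its day 8 level, a log2 fold change of 2.28 (SE 0.19, edgeR adjusted p = 7.87e-06).

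Mvd (chromosome 8, 122433601 to 122443422), the decarboxylase that makes isopentenyl diphosphate, had 13.4, 16.7 and 18.7 CPM on day 8, 13.2, 14.4 and 13.5 CPM on day 50 and 39.7, 23.4 and 33.3 CPM on day 65. Day 8 and day 50 overlapped, and each day 65 library was above both. Its log2 fold change was -0.25 (SE 0.20, edgeR adjusted p = 0.354) at day 50 against day 8 and 1.23 (SE 0.21, edgeR adjusted p = 0.000722) at day 65 against day 50, where on TPM the value was 0.36 and did not pass (limma adjusted p = 0.315). Fdps (chromosome 3, 89093588 to 89101959), the synthase of farnesyl diphosphate, had 39.0, 39.8 and 41.2 CPM on day 8, 86.1, 94.5 and 82.0 CPM on day 50 and 119, 77.3 and 97.9 CPM on day 65. Here it was day 8 that stood below both later ages, which overlapped. Fdps was 2.19-fold higher on day 50 than on day 8, a log2 fold change of 1.13 (SE 0.16, edgeR adjusted p = 0.000323), and at day 65 against day 50 the value was 0.16 (SE 0.16, edgeR adjusted p = 0.387). A predicted gene, Gm43738, covers 26.7% of the Fdps exon bases on the same strand and was listed at 0 counts at each age.

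Hmgcs1, which encodes the synthase that makes HMG-CoA, followed another course. It averaged 114 ± 15.8 CPM on day 8, 184 ± 9.55 CPM on day 50 and 109 ± 12.4 CPM on day 65 (mean ± SD, n = 3 libraries here and below). Its level was highest at day 50, and day 8 and day 65 overlapped. The log2 fold change was 0.69 (SE 0.14, edgeR adjusted p = 0.00342) at day 50 against day 8, -0.76 (SE 0.14, edgeR adjusted p = 0.00146) at day 65 against day 50 and -0.07 (SE 0.14, edgeR adjusted p = 0.696) at day 65 against day 8. Acat2, a thiolase that starts the pathway, averaged 17.6 ± 1.28 CPM on day 8, 22.6 ± 1.80 CPM on day 50 and 34.7 ± 3.82 CPM on day 65, and its log2 fold change at day 65 against day 50 was 0.62 (SE 0.14, edgeR adjusted p = 0.00368), against -0.10 on TPM (limma adjusted p = 0.75). At day 50 against day 8 the Acat2 value was 0.36 (SE 0.14, edgeR adjusted p = 0.0622), and it passed without day 65 replicate 1 (adjusted p = 0.0452). The close copy Acat3 measured 1.11, 0.779 and 3.47 CPM at days 8, 50 and 65. Idi1, the isomerase of isopentenyl diphosphate, was higher on day 50 than on day 8, with a log2 fold change of 0.61 (SE 0.20, edgeR adjusted p = 0.0312), a call that ended without day 8 replicate 2 or 3 or day 50 replicate 1 or 2 (adjusted p = 0.0691 to 0.0939). Idi1 passed as lower at day 65 against day 50 without day 65 replicate 3 (adjusted p = 0.0416). It passed as higher at day 65 against day 8 without day 8 replicate 1 (adjusted p = 0.0392). Pmvk, the next kinase after Mvk, did not pass in any of the 3 comparisons, except as higher at day 65 against day 8 without day 8 replicate 1 (adjusted p = 0.0299).

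**Figure D2:**
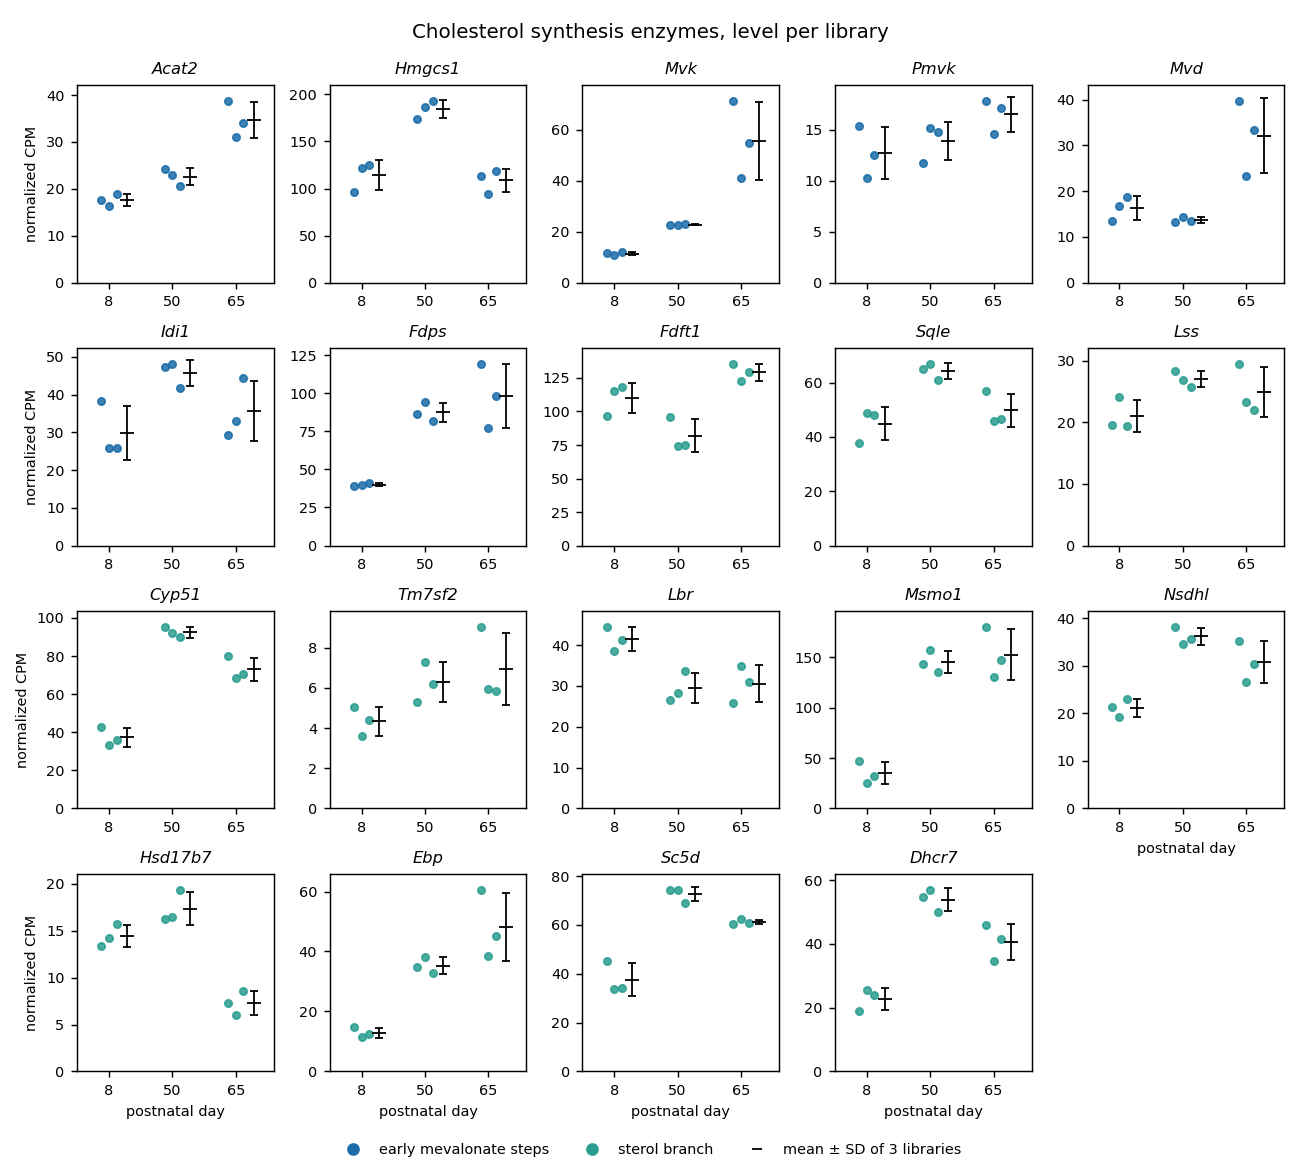
Normalized CPM (y axis, from 0, scaled per gene) of the 19 synthesis genes in each of the 9 libraries by postnatal day (x axis), with the mean and SD of the 3 libraries of an age beside the points. Mvk and Mvd reach their highest levels at day 65, Hmgcs1 and Cyp51 at day 50, and Hsd17b7 has its lowest at day 65, where its libraries lie between 6.02 and 8.62 CPM.

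In the sterol branch, which turns farnesyl diphosphate into cholesterol, 7 of 12 genes rose at day 50 against day 8 and 2 fell (Fdft1 and Lbr). The risers were Sqle, Cyp51, Msmo1, Nsdhl, Ebp, Sc5d and Dhcr7. On day 65 relative to day 50, 1 was higher (Fdft1) and 4 were lower (Sqle, Cyp51, Hsd17b7 and Dhcr7). Between day 65 and day 8, 7 were higher and 2 were lower (Lbr and Hsd17b7). The share of all genes called in either direction was 40.8%, 55.9% and 62.3% in that order. At day 65 against day 50, 8.33% of the branch was higher and 33.3% lower, against 27.5% and 28.4% of all genes. Msmo1 (chromosome 8, 64718139 to 64733792) encodes a methylsterol oxidase and had the largest changes of this branch against day 8. It had 47.4, 25.6 and 32.7 CPM on day 8, 143, 157 and 135 CPM on day 50 and 179.9, 130.3 and 147 CPM on day 65. The day 8 libraries lay below all others, and day 50 and day 65 overlapped. Msmo1 was 4.13-fold higher on day 50 than on day 8, a log2 fold change of 2.05 (SE 0.22, edgeR adjusted p = 6e-05). In day 65 ovaries against day 8 ones the log2 fold change was 2.12 (SE 0.22, edgeR adjusted p = 2.62e-05).

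Ebp (chromosome X, 8185329 to 8193512), a sterol isomerase, had 14.7, 11.6 and 12.3 CPM on day 8, 34.7, 38.3 and 32.8 CPM on day 50 and 60.5, 38.4 and 45.1 CPM on day 65. Its 3 ages did not overlap, although the lowest day 65 and the highest day 50 library nearly met. The log2 fold change was 1.46 (SE 0.18, edgeR adjusted p = 0.000165) at day 50 against day 8 and 1.90 (SE 0.18, edgeR adjusted p = 1.76e-05) at day 65 against day 8. With day 65 over day 50 it was 0.44 (SE 0.18, edgeR adjusted p = 0.0528), which passed without day 8 replicate 1 or 2 or day 65 replicate 2 (adjusted p = 0.0178 to 0.0458). Cyp51 (chromosome 5, 4081145 to 4104746), the demethylase of lanosterol, had 43.0, 33.4 and 35.7 CPM on day 8, 95.3, 92.0 and 89.9 CPM on day 50 and 79.9, 68.7 and 70.4 CPM on day 65. All 3 ages were apart, with day 50 on top. Cyp51 rose by a log2 fold change of 1.31 (SE 0.13, edgeR adjusted p = 3.87e-05) at day 50 against day 8. At day 65 against day 50 it was -0.34 (SE 0.13, edgeR adjusted p = 0.0429), a call that ended without day 8 replicate 3, any day 50 library or day 65 replicate 2 or 3 (adjusted p = 0.073 to 0.121). Akap9 covers 3.76% of the Cyp51 exon bases and measured 93.1, 86.7 and 37.7 CPM at days 8, 50 and 65.

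Dhcr7 (chromosome 7, 143823145 to 143848410), which encodes the reductase of 7-dehydrocholesterol, had 19.0, 25.6 and 24.1 CPM on day 8, 54.7, 57.0 and 50.1 CPM on day 50 and 45.9, 34.7 and 41.6 CPM on day 65. The order of the ages was that of Cyp51, without overlap. Dhcr7 rose by 1.23 (SE 0.16, edgeR adjusted p = 0.000166) on the log2 scale at day 50 against day 8, and at day 65 against day 50 it was -0.40 (SE 0.15, edgeR adjusted p = 0.043). The second of these calls ended without day 8 replicate 2 or 3, any day 50 library or day 65 replicate 2 or 3 (adjusted p = 0.0534 to 0.16). Hsd17b7 (chromosome 1, 169949535 to 169969241), a ketoreductase that also makes estradiol, had 13.3, 14.3 and 15.7 CPM on day 8, 16.2, 16.4 and 19.4 CPM on day 50 and 7.30, 6.02 and 8.62 CPM on day 65. Day 65 lay below every library of the other ages. The log2 fold change of Hsd17b7 was -1.24 (SE 0.18, edgeR adjusted p = 0.000374) at day 65 against day 50 and -0.98 (SE 0.18, edgeR adjusted p = 0.00102) at day 65 against day 8.

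Of the other sterol genes, Nsdhl, a sterol dehydrogenase, and Sc5d, a desaturase, rose at day 50 against day 8 by 0.77 (SE 0.14, edgeR adjusted p = 0.00165) and 0.95 (SE 0.14, edgeR adjusted p = 0.000375) on the log2 scale. Sc5d was also lower on day 65 than on day 50 without day 8 replicate 1 (adjusted p = 0.0427), against an edgeR adjusted p of 0.141 with all libraries. Sqle, the squalene epoxidase, was higher on day 50 than on day 8, with a log2 fold change of 0.52 (SE 0.14, edgeR adjusted p = 0.014) and lower on day 65 than on day 50, with a log2 fold change of -0.37 (SE 0.14, edgeR adjusted p = 0.0436). The first Sqle call ended without day 50 replicate 1 or 2 (adjusted p = 0.0549 to 0.0698), the second without day 8 replicate 2 or 3, any day 50 library or day 65 replicate 2 or 3 (adjusted p = 0.0621 to 0.163). Lss, the lanosterol synthase, passed in none of the comparisons on counts, except with the length and GC trend removed. With that removal it was higher at day 65 against day 50 (0.45, edgeR adjusted p = 0.0442) and against day 8. Tm7sf2, a sterol reductase, did not pass outside day 65 against day 8 (0.68, edgeR adjusted p = 0.0468). That Tm7sf2 call ended in 15 of 20 alternative settings, among them without day 8 replicate 2 or 3, any day 50 library or day 65 replicate 1 (adjusted p = 0.0543 to 0.157). Vps51, on the same strand, covers 12.1% of the Tm7sf2 exon bases and measured 37.7, 43.3 and 55.5 CPM at days 8, 50 and 65.

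Fdft1, the squalene synthase, averaged 110.0 ± 11.5 CPM on day 8, 81.9 ± 12.3 CPM on day 50 and 129 ± 6.20 CPM on day 65. It was lower on day 50 than on day 8, with a log2 fold change of -0.43 (SE 0.14, edgeR adjusted p = 0.0337), and higher on day 65 than on day 50, with a log2 fold change of 0.66 (SE 0.14, edgeR adjusted p = 0.00291), against -0.55 on TPM (limma adjusted p = 0.127). The fall of Fdft1 ended without day 8 replicate 2 or 3 or day 50 replicate 2 or 3 (adjusted p = 0.0866 to 0.147). Ctsb, a cathepsin gene on the opposite strand, covers 18.3% of the Fdft1 exon bases and measured 245, 672 and 942 CPM at days 8, 50 and 65. The sources used here do not state the strand setting of the counting, so reads of these overlapping genes may not be told apart. Lbr, a sterol reductase that is also a receptor of the nuclear lamina, was lower on day 50 than on day 8, with a log2 fold change of -0.49 (SE 0.15, edgeR adjusted p = 0.024) and lower on day 65 than on day 8, with a log2 fold change of -0.44 (SE 0.15, edgeR adjusted p = 0.0266). The Lbr calls ended without day 8 replicate 1 or 3 or day 50 replicate 1 or 2 (adjusted p = 0.0506 to 0.104) in the first comparison and without day 8 replicate 1 or 3, day 50 replicate 2 or day 65 replicate 1 or 3 (adjusted p = 0.0517 to 0.0874) in the second. Dnah14 covers 9.24% of the Lbr exon bases and measured 1.79, 0.272 and 11.9 CPM at days 8, 50 and 65.

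Of the 5 regulators, 4 rose at day 50 against day 8 (Srebf1, Srebf2, Scap and Insig2) and Insig1 fell. For day 65 against day 50, Srebf1 and Insig1 were higher and Srebf2 was lower. On day 65 relative to day 8, Srebf1, Scap and Insig1 were higher. Of all genes 40.8%, 55.9% and 62.3% were called in either direction in the 3 comparisons. Without regard to direction, the regulator counts in the last 2 lie near those shares. At day 65 against day 50, 40% of the regulators were higher and 20% lower, where 27.5% and 28.4% of all genes were. At day 65 against day 8, 60% of the regulators were higher and none lower, where 29.7% and 32.6% of all genes were. Insig1 (chromosome 5, 28071363 to 28078662) encodes an anchor of SCAP in the endoplasmic reticulum and is itself a known target of SREBP. It had 146, 146 and 171 CPM on day 8, 71.9, 81.8 and 83.9 CPM on day 50 and 322, 264 and 231 CPM on day 65. In CPM the 3 ages were apart, with day 50 lowest and day 65 highest. Insig1 fell by 0.96 (SE 0.15, edgeR adjusted p = 0.000728) on the log2 scale at day 50 against day 8. At day 65 it was 3.44-fold higher than at day 50, a log2 fold change of 1.78 (SE 0.16, edgeR adjusted p = 3.27e-05), and it was above day 8, with a log2 fold change of 0.82 (SE 0.15, edgeR adjusted p = 0.000945). On TPM the value at day 65 against day 8 was 0.15 and did not pass (limma adjusted p = 0.586). Insig2 (chromosome 1, 121304353 to 121332589), the other anchor, had 23.2, 18.9 and 23.1 CPM on day 8, 30.02, 32.6 and 28.03 CPM on day 50 and 22.1, 27.9 and 22.7 CPM on day 65. Day 50 lay above the other ages, which overlapped. It was higher on day 50 than on day 8, with a log2 fold change of 0.48 (SE 0.15, edgeR adjusted p = 0.0268), a call that ended without day 8 replicate 2 or any day 50 library (adjusted p = 0.051 to 0.114). Between day 65 and day 50 the Insig2 value was -0.32 (SE 0.15, edgeR adjusted p = 0.0899), and it passed without day 65 replicate 2 (adjusted p = 0.037).

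Srebf2 (chromosome 15, 82147269 to 82205379), which encodes the SREBP that acts mainly on cholesterol genes, had 72.4, 119 and 91.7 CPM on day 8, 179, 185 and 188 CPM on day 50 and 151, 101 and 122 CPM on day 65. Day 50 lay above the other ages and its 3 libraries were close together, and day 8 and day 65 overlapped. Srebf2 was higher on day 50 than on day 8 by 0.97 (SE 0.20, edgeR adjusted p = 0.00304) on the log2 scale and lower on day 65 than on day 50, with a log2 fold change of -0.56 (SE 0.20, edgeR adjusted p = 0.0312). That second Srebf2 call ended without day 8 replicate 3, any day 50 library or day 65 replicate 2 or 3 (adjusted p = 0.0555 to 0.105). In day 65 ovaries against day 8 ones the value was 0.40 (SE 0.20, edgeR adjusted p = 0.0967), and it passed without day 8 replicate 2 or day 65 replicate 2 (adjusted p = 0.0202 to 0.0443). Srebf1 (chromosome 11, 60199089 to 60222581), whose products act more on fatty acid genes, had 30.8, 40.3 and 35.2 CPM on day 8, 78.8, 74.7 and 77.1 CPM on day 50 and 123, 99.5 and 100.4 CPM on day 65. No age overlapped with another. Srebf1 rose by 1.12 (SE 0.14, edgeR adjusted p = 0.000161) on the log2 scale at day 50 against day 8. It was higher on day 65 than on day 50, with a log2 fold change of 0.49 (SE 0.14, edgeR adjusted p = 0.0121), a call that ended without day 50 replicate 2 (adjusted p = 0.0501) and on TPM, where the value was -0.22 (limma adjusted p = 0.577). Scap (chromosome 9, 110333288 to 110384950), the SREBP escort, had 116, 172 and 143 CPM on day 8, 342, 320.1 and 328 CPM on day 50 and 398, 291 and 349 CPM on day 65. Its day 8 libraries lay below all others. The log2 fold change of Scap was 1.20 (SE 0.18, edgeR adjusted p = 0.00048) at day 50 against day 8 and 0.07 (SE 0.18, edgeR adjusted p = 0.76) at day 65 against day 50. The gene 5830462I19Rik covers 13.2% of the Scap exon bases on the opposite strand and measured 1.02, 2.42 and 0.320 CPM at days 8, 50 and 65.

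**Figure D3:**
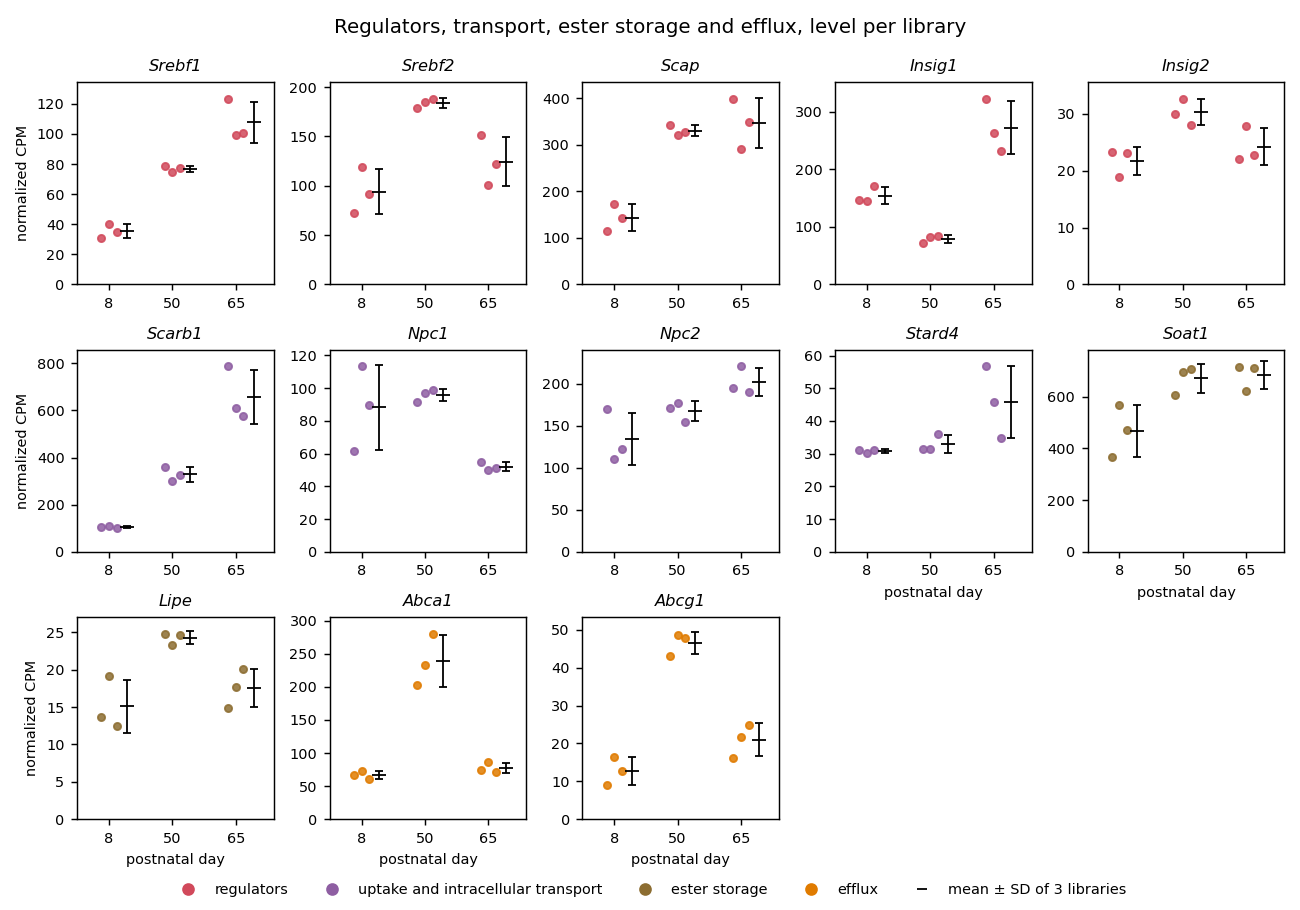
Normalized CPM (y axis, from 0, scaled per gene) of the 13 regulators, transport, storage and efflux genes in each of the 9 libraries by postnatal day (x axis), with the mean and SD of the 3 libraries of an age. In CPM, Scarb1 is higher at each later age, Insig1 is lowest at day 50, and Abca1 and Abcg1 peak at day 50, where their libraries lie between 202 and 280.5 CPM and between 43.1 and 48.7 CPM.

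Among 4 genes of uptake and intracellular transport, 1 rose at day 50 against day 8 (Scarb1). With day 65 over day 50, 2 were higher (Scarb1 and Stard4) and 1 was lower (Npc1), and at day 65 against day 8, 3 were higher (Scarb1, Npc2 and Stard4) and 1 was lower (Npc1). Among all genes the called shares were 40.8%, 55.9% and 62.3% in these 3 comparisons. Scarb1 (chromosome 5, 125277087 to 125341094) had 105, 111 and 102 CPM on day 8, 362, 299 and 328 CPM on day 50 and 787, 609 and 575 CPM on day 65. In CPM the libraries of the ages did not overlap. In TPM the lowest day 65 library (284) and the highest day 50 library (283) nearly met. Scarb1 was 3.11-fold higher on day 50 than on day 8, a log2 fold change of 1.64 (SE 0.17, edgeR adjusted p = 4.38e-05). It was 1.99-fold higher on day 65 than on day 50, a log2 fold change of 0.99 (SE 0.16, edgeR adjusted p = 0.000679), but on TPM the value was 0.20 and did not pass (limma adjusted p = 0.467). Day 65 was 6.20-fold above day 8, a log2 fold change of 2.63 (SE 0.17, edgeR adjusted p = 2.39e-06), the largest of the 32 in that comparison. Beside it, the 6 markers of theca and luteal cells (Star, Cyp11a1, Hsd3b1, Cyp17a1, Lhcgr and Fdx1) summed to 178 to 543 CPM at day 8, 3256 to 3823 CPM at day 50 and 830 to 1301 CPM at day 65. All 6 rose at day 50 against day 8, where 19.5% of all genes were called higher. All 6 fell at day 65 against day 50, where 28.4% of all genes did, the step at which Scarb1 was higher. The part of these cells in the Scarb1 levels was not tested.

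Npc1, the late endosomal membrane protein that releases cholesterol from lysosomes, averaged 88.3 ± 25.9 CPM on day 8, 95.8 ± 3.85 CPM on day 50 and 52.0 ± 2.602 CPM on day 65. Its 3 day 8 libraries were widely spread, from 61.8 to 113 CPM. Npc1 was lower on day 65 than on day 50, with a log2 fold change of -0.88 (SE 0.19, edgeR adjusted p = 0.003), and lower on day 65 than on day 8, with a log2 fold change of -0.76 (SE 0.19, edgeR adjusted p = 0.00532). Npc2, its soluble partner in the lysosome, averaged 134 ± 31.3 CPM on day 8, 167 ± 12.1 CPM on day 50 and 202 ± 16.6 CPM on day 65 and was higher on day 65 than on day 8, with a log2 fold change of 0.59 (SE 0.17, edgeR adjusted p = 0.0114). Npc2 was also higher on day 50 than on day 8 without day 8 replicate 1 (adjusted p = 0.00885), against an edgeR adjusted p of 0.158 with all libraries. Stard4, a sterol carrier of the cytosol, averaged 30.8 ± 0.543 CPM on day 8, 32.9 ± 2.76 CPM on day 50 and 45.8 ± 10.997 CPM on day 65. It was higher on day 65 than on day 50, with a log2 fold change of 0.47 (SE 0.17, edgeR adjusted p = 0.0352), a call that ended without day 50 replicate 1 or 2 or day 65 replicate 1 or 2 (adjusted p = 0.0677 to 0.132) and on TPM, where the value was -0.35 (limma adjusted p = 0.295). At day 65 against day 8 the Stard4 value was 0.57 (SE 0.17, edgeR adjusted p = 0.0141), and this ended without day 65 replicate 1 (adjusted p = 0.0506).

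Both genes of ester storage passed at day 50 against day 8 and neither passed at day 65 against day 50. Of all genes 40.8% passed in the first comparison and 55.9% in the second. Soat1, the acyltransferase that forms cholesteryl esters, averaged 468 ± 100.4 CPM on day 8, 670.2 ± 54.8 CPM on day 50 and 683 ± 54.0 CPM on day 65. Its log2 fold change at day 50 against day 8 was 0.52 (SE 0.19, edgeR adjusted p = 0.0498), a call that ended in 15 of 20 settings, among them without day 8 replicate 1 or 3, any day 50 library or any day 65 library (adjusted p = 0.0529 to 0.164). For day 65 against day 8 it was 0.54 (SE 0.19, edgeR adjusted p = 0.0279), which ended without day 8 replicate 3, day 50 replicate 2 or day 65 replicate 1 or 3 (adjusted p = 0.0505 to 0.0753). Lipe, the hormone-sensitive lipase that also cleaves cholesteryl esters, averaged 15.1 ± 3.51 CPM on day 8, 24.2 ± 0.871 CPM on day 50 and 17.6 ± 2.57 CPM on day 65. It was higher on day 50 than on day 8, with a log2 fold change of 0.68 (SE 0.19, edgeR adjusted p = 0.0144), and this ended without day 8 replicate 3 or day 50 replicate 3 (adjusted p = 0.0501 to 0.0673). On day 65 relative to day 50 the Lipe value was -0.46 (SE 0.19, edgeR adjusted p = 0.0553), and it passed without day 8 replicate 1 or 2 or day 65 replicate 3 (adjusted p = 0.0326 to 0.0456). Lipe is also abundant in fat. The 6 adipocyte markers were Adipoq, Plin1, Lep, Cidec, Retn and Fabp4. They summed to 3.72 to 16.5 CPM at day 8, 15.7 to 61.7 CPM at day 50 and 19.8 to 27.3 CPM at day 65. Plin1 and Fabp4 averaged 16.5 and 7.34 CPM at day 65, against 3.43 and 3.78 CPM at day 8. Adipoq and Retn averaged 0.157 and 0.0276 CPM at day 65, against 0.819 and 0.372 CPM at day 8. Cidec and Lep were at 0 in all 3 day 65 libraries. The part of adipocytes in Lipe was not tested.

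Both efflux transporters peaked at day 50. Of all genes 19.5% were called higher at day 50 against day 8 and 28.4% lower at day 65 against day 50. Abca1 (chromosome 4, 53030787 to 53159895), which loads cholesterol on apolipoproteins, had 66.4, 73.4 and 61.5 CPM on day 8, 202, 234 and 280.5 CPM on day 50 and 74.4, 86.6 and 71.2 CPM on day 65. Every day 50 library was well above all others, and day 8 and day 65 overlapped. Abca1 was 3.56-fold higher on day 50 than on day 8, a log2 fold change of 1.83 (SE 0.16, edgeR adjusted p = 1.49e-05). It was lower on day 65 than on day 50, with a log2 fold change of -1.63 (SE 0.16, edgeR adjusted p = 4.52e-05), and the difference between day 65 and day 8 did not pass (0.21, edgeR adjusted p = 0.262). Abcg1 (chromosome 17, 31057698 to 31115777), a transporter to high-density lipoprotein, had 9.12, 16.5 and 12.7 CPM on day 8, 43.1, 48.7 and 47.9 CPM on day 50 and 16.3, 21.8 and 24.95 CPM on day 65. Its day 50 libraries were also above all others. The log2 fold change of Abcg1 was 1.86 (SE 0.22, edgeR adjusted p = 0.000125) at day 50 against day 8, and -1.15 (SE 0.22, edgeR adjusted p = 0.00152) at day 65 against day 50. Day 65 was above day 8, with a log2 fold change of 0.72 (SE 0.22, edgeR adjusted p = 0.0166), with overlapping libraries. On TPM that value was -0.27, and the call ended without day 65 replicate 3 (adjusted p = 0.0658).

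Macrophages are rich in both transporters. The 6 macrophage markers (Cd68, Csf1r, Adgre1, Lyz2, C1qa and C1qb) summed to 47.4 to 105 CPM at day 8, 290 to 390 CPM at day 50 and 97.0 to 222 CPM at day 65. Of these 4 rose at day 50 against day 8, where 19.5% of all genes did. At day 65 against day 50, 2 of the macrophage markers fell, where 28.4% of all genes did. Their part in the efflux genes was not tested. Nr1h3 and Nr1h2 encode the liver X receptors that induce both transporters. Nr1h3 averaged 0.956 ± 0.294 CPM on day 8, 4.25 ± 0.477 CPM on day 50 and 2.72 ± 0.845 CPM on day 65 and was higher on day 50 than on day 8 by 2.16 (SE 0.36, edgeR adjusted p = 0.000928) on the log2 scale. Nr1h2 averaged 61.1 ± 8.44 CPM on day 8, 74.2 ± 2.96 CPM on day 50 and 99.7 ± 15.4 CPM on day 65. Between day 65 and day 50 the log2 fold change was -0.63 (SE 0.33, edgeR adjusted p = 0.129) for Nr1h3 and 0.43 (SE 0.15, edgeR adjusted p = 0.0306) for Nr1h2. The Nr1h2 call ended without day 8 replicate 3, any day 50 library or day 65 replicate 1 (adjusted p = 0.0504 to 0.108), with library size as the only scaling (0.476), with no filter on low counts (0.0937), on TPM (0.258) and with the length and GC trend removed (0.713).

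A wider list of 39 genes of sterol and lipid handling, of which 38 were tested (Soat2 had too few counts), gave the setting. At day 50 against day 8, 20 rose and 3 fell, with a median log2 fold change of 0.56, where 19.5% of all genes were called higher and 21.4% lower and their median was -0.04. In day 65 ovaries against day 50 ones, 5 were higher and 16 lower, with a median of -0.41, where 27.5% of all genes were higher and 28.4% lower and their median was -0.06. With day 65 over day 8, 17 were higher and 5 lower, with a median of 0.33, where 29.7% of all genes were higher and 32.6% lower and their median was -0.05. Of 9 genes of fatty acid synthesis, 6 rose and none fell at day 50 against day 8, and none was higher and 4 were lower at day 65 against day 50. Scd1, a desaturase of fatty acids, averaged 14.9 ± 2.88 CPM on day 8, 88.0 ± 40.8 CPM on day 50 and 27.2 ± 1.83 CPM on day 65, with a log2 fold change of 2.56 (SE 0.32, edgeR adjusted p = 0.000207) at day 50 against day 8. Scd2, a related desaturase, averaged 486 ± 82.1 CPM on day 8, 1512 ± 102 CPM on day 50 and 1719 ± 201 CPM on day 65 and was higher, with a log2 fold change of 1.64 (SE 0.20, edgeR adjusted p = 0.000133) in that comparison. Acly, which supplies cytosolic acetyl-CoA, averaged 119 ± 15.5 CPM on day 8, 250.2 ± 5.71 CPM on day 50 and 95.7 ± 15.5 CPM on day 65 and was lower on day 65 than on day 50, with a log2 fold change of -1.39 (SE 0.15, edgeR adjusted p = 8.47e-05).

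The 4 genes of steroid hormone entry (Star, Cyp11a1, Hsd3b1 and Fdx1), all of them also in the theca and luteal list, rose at day 50 against day 8 and fell at day 65 against day 50. Over all genes 19.5% were higher in the first of these comparisons and 28.4% lower in the second. Star, which moves cholesterol into mitochondria, averaged 31.2 ± 1.34 CPM on day 8, 57.7 ± 4.14 CPM on day 50 and 22.0 ± 4.56 CPM on day 65. It was higher on day 50 than on day 8, with a log2 fold change of 0.89 (SE 0.15, edgeR adjusted p = 0.00121), and lower on day 65 than on day 50, with a log2 fold change of -1.39 (SE 0.16, edgeR adjusted p = 9.39e-05). At day 65 it was also below day 8, with a log2 fold change of -0.50 (SE 0.16, edgeR adjusted p = 0.0168), a call that ended without day 65 replicate 2 (adjusted p = 0.0537), with only the 2 ages in the fit (0.051) and with the length and GC trend removed (0.135). Cyp11a1, which cleaves the cholesterol side chain, averaged 17.5 ± 17.7 CPM on day 8, 419.9 ± 116 CPM on day 50 and 107 ± 36.6 CPM on day 65. At day 50 against day 8 its log2 fold change was 4.60 (SE 0.69, edgeR adjusted p = 0.000578), and 5.82 without day 8 replicate 1, whose level was 37.7 CPM. At day 65 against day 50 it was -1.97 (SE 0.61, edgeR adjusted p = 0.0201), which ended without day 50 replicate 1 or day 65 replicate 1 or 2 (adjusted p = 0.0575 to 0.0706) and with no filter on low counts (0.106). Hsd3b1, the dehydrogenase that follows, averaged 223 ± 164 CPM on day 8, 2775 ± 152 CPM on day 50 and 954 ± 235 CPM on day 65, and its log2 fold change at day 50 against day 8 was 3.64 (SE 0.47, edgeR adjusted p = 0.000223), and 4.43 without day 8 replicate 1.

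Other named genes followed several courses. Tmem97, an endoplasmic reticulum protein that binds NPC1, averaged 60.8 ± 5.11 CPM on day 8, 33.0 ± 3.32 CPM on day 50 and 103 ± 10.03 CPM on day 65. It was lower on day 50 than on day 8, with a log2 fold change of -0.88 (SE 0.13, edgeR adjusted p = 0.000474) and higher on day 65 than on day 50, with a log2 fold change of 1.65 (SE 0.13, edgeR adjusted p = 2.38e-05), the same signs as Insig1. Nceh1 and Lipa, hydrolases of cholesteryl esters, had their highest levels at day 50. Nceh1 averaged 24.8 ± 3.27 CPM on day 8, 69.5 ± 3.46 CPM on day 50 and 31.1 ± 4.30 CPM on day 65, with a log2 fold change of 1.49 (SE 0.15, edgeR adjusted p = 3.64e-05) at day 50 against day 8. Lipa averaged 27.4 ± 1.87 CPM on day 8, 55.2 ± 1.68 CPM on day 50 and 19.8 ± 4.34 CPM on day 65, and at day 65 against day 50 its value was -1.48 (SE 0.16, edgeR adjusted p = 8.68e-05). Lpl, the lipoprotein lipase, and Fntb, a subunit of farnesyltransferase, were higher on day 65 than on day 50, with log2 fold changes of 0.74 (SE 0.19, edgeR adjusted p = 0.00731) and 0.78 (SE 0.17, edgeR adjusted p = 0.00317), but neither passed on TPM (limma adjusted p = 0.617 and 0.496) and Lpl did not with library size alone (edgeR adjusted p = 0.0549). Lrp8, a lipoprotein receptor, averaged 2.01 ± 0.121 CPM on day 8, 9.31 ± 1.31 CPM on day 50 and 12.7 ± 5.12 CPM on day 65 and was higher on day 65 than on day 8, with a log2 fold change of 2.65 (SE 0.30, edgeR adjusted p = 4.41e-05), which did not pass on TPM (limma adjusted p = 0.0831). Mylip, the ubiquitin ligase of lipoprotein receptors, averaged 15.2 ± 3.33 CPM on day 8, 22.3 ± 1.38 CPM on day 50 and 6.07 ± 3.05 CPM on day 65 and was lower on day 65 than on day 8, with a log2 fold change of -1.31 (SE 0.32, edgeR adjusted p = 0.00497). Cyp7b1, an oxysterol hydroxylase, averaged 6.16 ± 0.724 CPM on day 8, 3.21 ± 0.513 CPM on day 50 and 1.64 ± 0.707 CPM on day 65 and was lower on day 65 than on day 8, with a log2 fold change of -1.88 (SE 0.35, edgeR adjusted p = 0.000957).

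In the smaller groups of that list, 3 of 7 genes of SREBP processing and sterol-regulated degradation rose at day 50 against day 8 and 1 fell, and 2 were higher and 3 lower at day 65 against day 50. Of 7 lipoprotein receptors, lipases and transfer proteins, 4 rose and none fell at day 50 against day 8, and 1 was higher and 2 lower at day 65 against day 50. Of the 3 liver X receptor genes, counting Mylip, 1 rose at day 50 against day 8, and 1 was higher and 1 lower at day 65 against day 50. Of 3 oxysterol enzymes, 1 rose and 1 fell at day 50 against day 8 and 1 fell at day 65 against day 50. Of 4 genes of isoprenoid side branches, 1 fell at day 50 against day 8 and 1 was higher at day 65 against day 50. Over all genes 40.8% were called in either direction at day 50 against day 8 and 55.9% at day 65 against day 50. Several of these counts, without regard to direction, lie near those shares.

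Marker genes of the other cell types of the ovary moved with age as well. At day 50 against day 8, 5 of 6 granulosa markers rose, all 6 oocyte markers fell, 5 of 6 stromal fibroblast markers fell and 2 of 6 endothelial markers rose. For day 65 against day 50, 4 granulosa markers were lower and 1 higher, 2 oocyte markers were lower and 1 higher, 4 stromal markers were higher, and 3 endothelial markers were lower and 2 higher. Over all genes 40.8% were called in either direction in the first comparison and 55.9% in the second. Several of these marker counts, without regard to direction, lie near those shares. The stromal markers summed to 1450 to 1738 CPM at day 8, 439 to 755 CPM at day 50 and 2085 to 2338 CPM at day 65, and the endothelial ones to 226 to 313, 297 to 348 and 202 to 265 CPM. Col1a1 alone averaged 1588 CPM at day 65, when the stromal sum averaged 2224 CPM. In TPM the stromal sum averaged 999 (day 8), 425 (day 50) and 607 (day 65). Each day 65 library was below every day 8 library on that scale. Between day 65 and day 8, 1 of the 6 stromal markers was higher and 2 were lower on counts. Of the 6 granulosa markers, 3 were higher and 2 lower in that comparison. Of all genes 29.7% were higher and 32.6% lower there. The part of any of the cell types above in the levels of the 32 genes was not tested.

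Levels can be compared between genes only per length, in TPM. At day 8 Soat1 had the highest mean TPM of the 32 genes (290.9 ± 143, SD), followed by Insig1 (96.8 ± 28.2), Scarb1 (80.5 ± 22.3), Fdft1 (77.4 ± 31.4) and Npc2 (75.1 ± 2.73), the last 4 of which did not differ beyond their spread. At day 50 the order was Soat1 (415 ± 44.0), Scarb1 (259 ± 27.6), Scap (175 ± 12.2), Msmo1 (145 ± 4.39) and Fdps (135 ± 7.77). At day 65 it was Scarb1 (296 ± 14.2), Soat1 (130.2 ± 16.7), Msmo1 (112 ± 8.29), Insig1 (104.5 ± 6.40) and Npc2 (93.5 ± 22.8), and the values from Soat1 to Npc2 were within each other's spread or next to it. Abcg1 was lowest at day 8 (4.95 ± 2.20 TPM) and Hsd17b7 was lowest at day 50 and day 65 (8.97 ± 1.58 and 1.69 ± 0.489 TPM).

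Counts of the 32 genes summed to 1849 to 2171 CPM at day 8, 3291 to 3404 CPM at day 50 and 3370 to 4087 CPM at day 65, while their summed TPM averaged 1243 at day 8 (798 in replicate 1), 2164 at day 50 and 1366 at day 65. The step to day 65 thus depended on whether counts or TPM were read. For Soat1 the mean count level was 683 CPM at day 65 and 670.2 CPM at day 50, while its mean TPM was 130.2 at day 65 and 415 at day 50, and the mean transcript length that RSEM assigned to it was 5379 bases at day 65 and 2951 bases at day 50. Scap was given 4192 bases at day 65 and 3432 bases at day 50, and Npc1 2318 bases at day 65 and 3904 bases at day 50. In limma on log2(TPM + 1), the median of all genes at day 65 against day 50 was -0.56, so values are read against that shift. The median of the 32 genes there was -0.96, which is -0.40 relative to all genes, against 0.04 and 0.10 on counts. On day 65 relative to day 8 it was -0.13 on TPM, 0.38 relative to all genes, against 0.58 and 0.63 on counts. At day 50 against day 8 the 32 genes lay 0.69 above all genes on both scales, and of 23 calls those of Sqle, Insig2, Soat1, Lipe, Fdft1 and Lbr ended on TPM. Of the 8 genes called higher at day 65 against day 50 on counts, Insig1 alone was kept on TPM (log2 fold change 0.92, limma adjusted p = 0.00485). Acat2, Mvk, Mvd, Fdft1, Srebf1, Scarb1 and Stard4 were not. Without the shift taken out, the sign turned for Acat2 (-0.10), Fdft1 (-0.55), Srebf1 (-0.22) and Stard4 (-0.35). Of these, Acat2, Srebf1 and Stard4 lay above the all-gene median of -0.56 on TPM, and Fdft1 lay next to it. All 9 genes called lower were kept on TPM, and 9 more were called lower there (Idi1, Fdps, Lss, Nsdhl, Sc5d, Scap, Insig2, Soat1 and Lipe). On that scale 8318 of all 17747 genes were called lower in this comparison. Between day 65 and day 8, 6 of 19 higher genes were kept on TPM (Mvk, Fdps, Msmo1, Ebp, Srebf1 and Scarb1) and 2 of 3 lower genes, all but Npc1, and Hmgcs1, Fdft1, Insig2 and Soat1 were also called lower there.

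**Figure D4:**
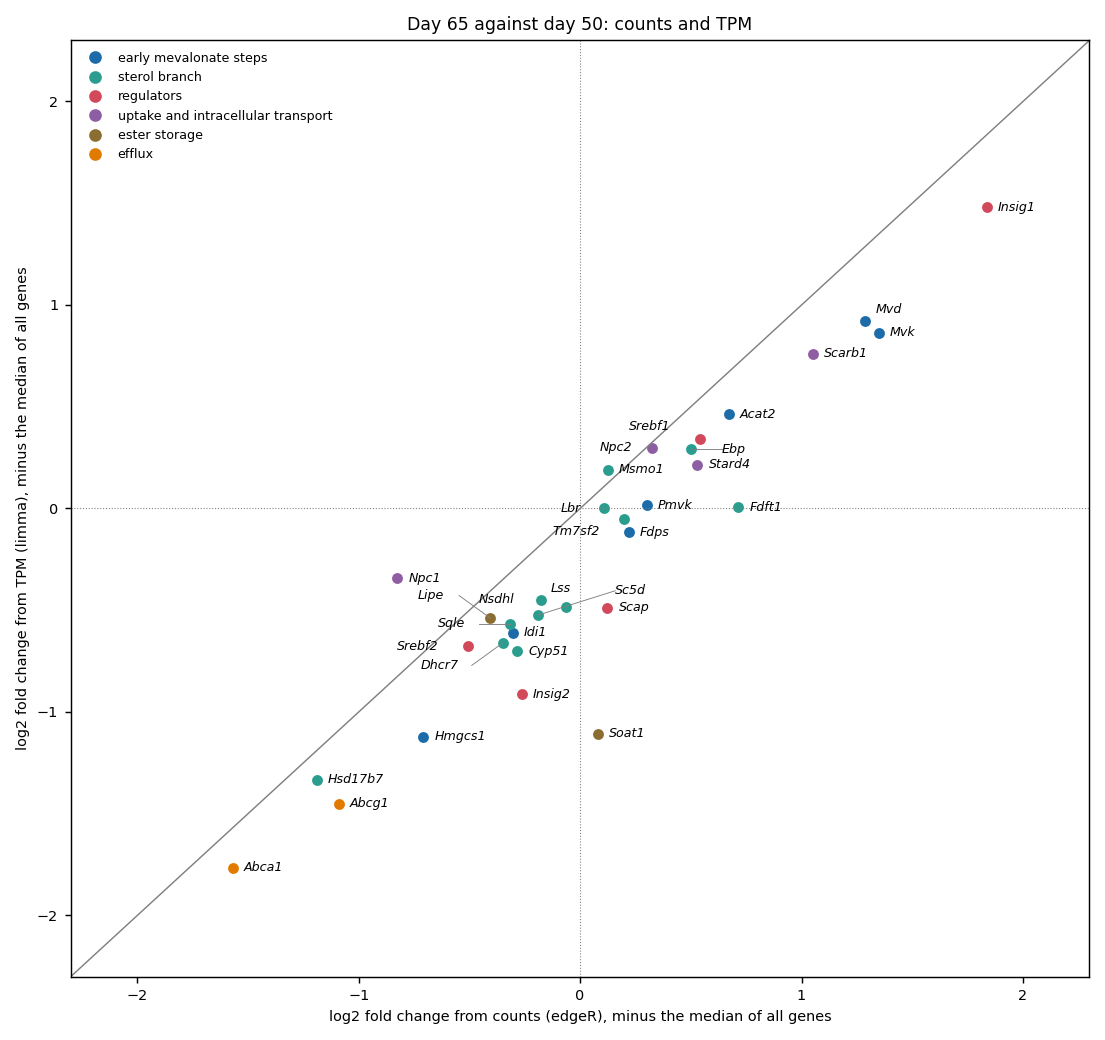
Log2 fold changes of the 32 genes at day 65 against day 50 from counts (x axis, edgeR) and from TPM (y axis, limma), each minus the median of all genes on that scale, with the diagonal as the line of equal values and colours for roles. Insig1 lies at the upper right and Abca1 at the lower left on both scales, and Soat1 lies far below the diagonal.

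Removing the length and GC trend of each library moved the day 65 values of all genes the other way, and the median of the 32 genes at day 65 against day 50 lay 0.09 above that of all genes, against 0.10 without it. In day 65 ovaries against day 50 ones it left 8 of 8 higher genes and added Lss, Lbr, Scap, Npc2 and Soat1. It left 3 of 9 lower genes (Hsd17b7, Abca1 and Abcg1), and the calls of Hmgcs1, Sqle, Cyp51, Dhcr7, Srebf2 and Npc1 ended. With day 65 over day 8 the lower calls of Lbr, Hsd17b7 and Npc1 and the higher call of Tm7sf2 ended, and Hmgcs1, Idi1, Fdft1, Sqle, Lss, Srebf2, Insig2 and Abca1 were added to the higher ones. At day 50 against day 8 all 23 calls were kept. With library size as the only scaling, the higher calls of Acat2, Fdft1, Srebf1 and Stard4 at day 65 against day 50 ended, as did those of Tm7sf2, Nsdhl, Npc2, Stard4, Soat1 and Abcg1 at day 65 against day 8 and the calls of Sqle, Insig2, Soat1 and Fdft1 at day 50 against day 8. Without the filter on low counts the calls of Fdft1 and Lbr at day 50 against day 8, of Stard4 and Cyp51 at day 65 against day 50 and of Tm7sf2 and Lbr at day 65 against day 8 ended. Sqle and Dhcr7 did not pass at day 65 against day 50 with DESeq2 or its size factors, and with upper quartile scaling Cyp51 did not pass there and Insig2 did not at day 50 against day 8. With only the 2 ages in the fit, the Soat1, Tm7sf2 and Lbr calls at day 65 against day 8 ended, and Ebp and Lipe passed at day 65 against day 50. At day 65 against day 50, the calls of Insig1 (higher) and of Hsd17b7, Abca1 and Abcg1 (lower) were kept in all 20 alternative settings. So were, at day 50 against day 8, those of Hmgcs1, Mvk, Fdps, Cyp51, Msmo1, Nsdhl, Ebp, Sc5d, Dhcr7, Srebf1, Srebf2, Scap, Scarb1, Abca1 and Abcg1 (higher) and of Insig1 (lower).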

How the data were processed

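RNA-seq libraries were made from ovary total RNA with a NuGEN Universal Plus mRNA-Seq kit, per the labels' protocols. The authors deposited 1 RSEM gene table per library, with expected counts (estimated counts, not normalized), TPM (RSEM's length-corrected unit, with the same sum in each library), FPKM and gene lengths, per the file headers. Genome build GRCm38 (mm10) is named in the submitters' processing notes. The sources used here do not give the aligner, its version or the strand setting. FPKM, as deposited, was not tested.

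The deposited expected counts were rounded to whole numbers, filtered by age group with filterByExpr, scaled by TMM and tested with edgeR 4.0.16 (robust quasi-likelihood, age as the only term, all 9 libraries in 1 fit, R 4.3.3) over 17747 genes with Benjamini-Hochberg adjustment and a threshold of 0.05. The SE of a log2 fold change was derived from the F statistic. The self-test recovered known changes in simulated counts. Those changes were placed in day 50 libraries alone, and no TPM or shift in transcript length was simulated. It therefore cannot address the day 65 differences between counts and TPM. Alternatives were other scalings, no filter, DESeq2 1.42.0, limma 3.58.1 on log2(TPM + 1), removal of each library's length and GC trend (mgcv 1.9.3), a replicate block, fits of 2 ages and each library left out in turn, 20 settings in all. Depth was 14116908 to 18868831 counts per library, and genes with few counts have larger errors.

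Values by library are given for genes called with at least a 2-fold change and no overlap between ages, and for the 5 regulators. Of the wider list, at most 4 genes called in each direction of a comparison, those with the smallest p, were eligible to be named, with Star, Cyp11a1, Nr1h2 and Nr1h3 in any case. The 32 genes, the wider list, the markers and the tests were chosen with earlier results of these data known. Gene positions and overlaps are from GENCODE M21 on GRCm38, and promoter windows are from RefSeq on GRCm38.p6. The motif CACNCCAC was added after the other motifs had been searched.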

Additional observations from a re-analysis of the deposited data

How the results depend on the processing

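The 3 libraries per age limit the precision, and counts of calls near the threshold moved when a library was left out. Leaving out 1 library at a time gave, at day 50 against day 8, 16 to 20 of the 32 genes higher, 1 to 3 lower and a median log2 fold change of 0.57 to 0.70. Day 65 against day 50 gave 6 to 9 higher, 5 to 11 lower and a median of -0.08 to 0.06. Day 65 against day 8 gave 16 to 21 higher, 2 to 3 lower and a median of 0.48 to 0.62. Among the settings that kept all 9 libraries, those not named below gave counts of higher and of lower genes within 1.5 times their value.

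With no filter on low counts, 1 gene was lower at day 50 against day 8, and the median log2 fold change was 0.73. On TPM these values were 1 and 0.79. Scaling by library size alone gave, for day 65 against day 50, 4 higher, 14 lower and a median of -0.22, with all genes at -0.31, so that the 32 genes lay 0.09 above all genes, against 0.10 in the reported fit. Of all 17747 genes, 3407 were higher and 6183 lower with that scaling. TPM gave 1 higher, 18 lower and a median of -0.96, with all genes at -0.56 (1723 of them higher and 8318 lower). Removal of the length and GC trend gave 13 higher, 3 lower and a median of 0.18, with all genes at 0.08 (0.09 apart). With that removal 5165 of all genes were higher and 3777 lower. Library size alone gave a median of 0.29 at day 65 against day 8, which was 0.63 above all genes, as in the reported fit. For this comparison TPM gave 6 higher, 6 lower and a median of -0.13 (0.38 above all genes), where 2449 of all genes were higher and 7905 lower. Removal of the length and GC trend gave 0 lower in edgeR, where DESeq2 without that removal gave 3, and a median of 0.90 (0.80 above all genes). After that removal 6107 of all genes were higher and 4922 lower. The cause of these differences was not tested.

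The replicate numbers were not treated as pairs, since same-numbered libraries showed no sign of deviating together. Correlations of their deviations from the group means lay between -0.043 and 0.052, against -0.106 to 0.094 for libraries of unlike number. With 3 libraries per age this cannot exclude that the numbers share a batch. A replicate block gave 18 higher and 2 lower at day 50 against day 8, 7 and 6 at day 65 against day 50, and 18 and 3 at day 65 against day 8. The block with the length and GC trend removed gave 3 lower and a median of 0.17 at day 65 against day 50, and 0 lower and a median of 0.90 at day 65 against day 8.

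A gene's direction was read as reversed where its sign changed and it was called in either fit. This happened in 0 cases at day 50 against day 8, 18 at day 65 against day 50 and 11 at day 65 against day 8. Signs were taken without subtracting the all-gene median. On TPM that median was -0.56 at day 65 against day 50 and -0.50 at day 65 against day 8. On TPM, the log2 fold change at day 65 against day 50 was -0.10 for Acat2, -0.68 for Fdps, -0.55 for Fdft1, -0.22 for Srebf1, -1.05 for Scap, -0.35 for Stard4 and -1.67 for Soat1. In the wider list it was -0.35 for Nr1h2, -0.67 for Scd2, -0.22 for Fntb, -0.15 for Lpl and -0.19 for Syvn1. Of these genes, Fdps, Scap, Soat1 and Scd2 lay below the all-gene median, and the others lay above or next to it. The TPM values at day 65 against day 8 were -0.96 for Fdft1, -0.11 for Nsdhl, -0.84 for Insig2, -0.15 for Stard4, -1.02 for Soat1, -0.27 for Abcg1 and -0.015 for Scd1. Here Fdft1, Insig2 and Soat1 lay below the all-gene median, and the others lay above it. With the length and GC trend removed, the log2 fold change at day 65 against day 50 was 0.45 for Lss, 0.33 for Cyp51 and 0.095 for Erlin2, and with the replicate block added it was 0.44, 0.31 and 0.098. Trend removal gave, at day 65 against day 8, 0.51 for Hmgcs1 and 0.060 for Lipa, and with the replicate block 0.50 and 0.059. The cause of the reversals was not tested.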
